A study of Mus musculus with 9 samples.

Results

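Transcript levels in the CD45-depleted fraction of the mouse thymus were compared between the 3 arrays of mice at day 7 after irradiation and the 3 arrays of untreated mice, which were chosen by their titles from the 9 arrays of the series. All groups were female C57BL/6J mice, for which the labels give an age of 6 to 8 wo. The mice of the day 4 and day 7 groups had received 550 cGy, a treatment the labels call SL-TBI, usually read as sublethal total body irradiation, and the untreated mice had received none. A depletion with beads against CD45 was applied to lower the share of white blood cells, although Ptprc, which encodes CD45, still read 12.25, 11.96 and 12.45 on the untreated arrays. Cells of several mice were combined for each sample, so that an array reads a pool. Whether the samples of a group were independent pools is not given in the sources used here, and p-values therefore measure only the spread between these samples, which may be technical. The 3 day 4 arrays entered the same model, and day 4 values stand beside those of day 7. The day 4 and day 7 comparisons with untreated share the untreated arrays.

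The thymic stroma is the framework in which T cells mature. Cortical epithelium drives the early selection of thymocytes, medullary epithelium displays antigens of other tissues under the control of Aire, and vessels, pericytes, fibroblasts and the mesothelial capsule carry cells and growth factors to them. Irradiation kills most thymocytes within days, and surviving precursors refill the organ afterwards. Each value is the log2 signal of 1 probe set per gene, so a difference of 1 is a doubling, and a gene was tested where it reached 4 on at least 3 of the 9 arrays. In such a mixture, fewer cells of a type and less RNA per cell cannot be told apart.

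Of the 10937 genes tested, 3509 (32.1%) were higher and 2406 (22.0%) lower at day 7 than in untreated thymus, at a Benjamini-Hochberg adjusted p under 0.05 in limma. The groups did not overlap for 62.4% of genes. By at least 2-fold, 941 genes (8.60%) were higher and 992 (9.07%) lower, and the median difference over all genes was 0.09. Across probe sets, which are not independent replicates, r was 0.987 to 0.993 within untreated, 0.996 within day 7 and 0.959 to 0.975 between them. As a sign of RNA quality, the signal at the 3-prime end exceeded that at the 5-prime end by 2.28 ± 0.15 untreated and 2.51 ± 0.21 at day 7 for Actb (SD, n = 3, two-sided exact permutation p 0.2) and 0.90 ± 0.13 and 0.90 ± 0.21 for Gapdh (exact permutation p 1), where the smallest possible p is 0.1. At day 4 the excess was 3.13 ± 0.17 and 1.37 ± 0.24 (SD, n = 3), above every day 7 array in both genes (exact permutation p 0.1 for each). Untreated replicate 3 stood apart from the other untreated arrays, being high in vessel genes and low in medullary and antigen genes, and lists or families with a count that moved by over 1.5 times when 1 of the 9 arrays was left out are given with the range of their rises and falls. Of the genes tested, 111 passed the filter only through their day 7 values and 201 only through their untreated values. Such genes were in effect chosen for being high in 1 group, so those named are given without a p. Centring every array on the general epithelium list added 0.34 to each difference, and centring on the fibroblast list took 0.89 from it. Of all called genes 59.3% were higher, against 81.1% under the first centring and 4.6% under the second. Such a shift moves all genes alike, so that the distance of a list from the all-gene median stays the same while medians between 0 and 0.89 turn sign under the second.

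**Figure D1:**
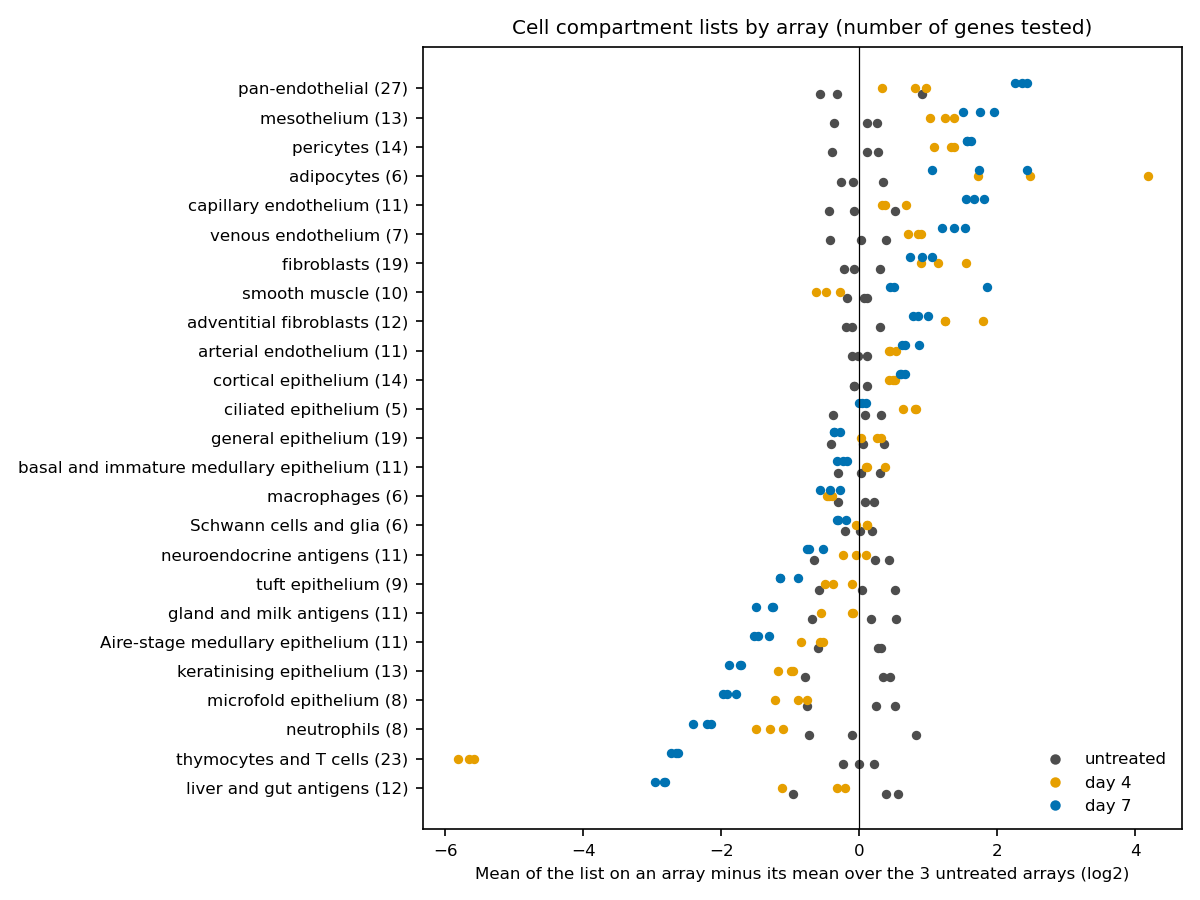
Each point is the mean log2 value of a compartment list on 1 array, minus the mean of the 3 untreated arrays, for lists with at least 5 genes tested (number in brackets). Grey points are untreated, orange day 4 and blue day 7. The blue points lie right of all grey points for vessels, pericytes and mesothelium and left of them for thymocytes, keratinising epithelium and the antigen lists of liver and gut, while general epithelium overlaps.

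The pan-endothelial list had the highest median of the compartment lists. Of 27 pan-endothelial genes 26 rose and 0 fell, with a median of 2.43 against 0.09 for all genes. Kdr, the main receptor for vascular endothelial growth factor, read 3.78, 4.18 and 5.10 on the untreated arrays and 7.40, 7.69 and 7.13 at day 7 (difference 3.05, SE 0.37, adjusted p 0.000237). Erg, a transcription factor of endothelial identity, read 4.40, 4.71 and 5.14 untreated and 6.97, 6.91 and 7.09 at day 7 (2.24, adjusted p 3.9e-05). Gpihbp1, which anchors lipoprotein lipase to capillary walls, read 3.63, 4.17 and 5.86 untreated and 8.92, 8.92 and 8.31 at day 7 (4.17, adjusted p 0.000232). In each of these genes all day 7 arrays lay above all untreated arrays, and untreated replicate 3 was the highest untreated array. That array was the highest untreated array in 25 of the 27 genes, with a list mean of 6.06 against 4.58 and 4.83, while the day 7 means were 7.58, 7.51 and 7.41. Without it 26 genes were still called and the median was 2.85. Pecam1, an adhesion molecule of endothelial junctions, had less distance, at 4.06, 2.84 and 5.20 untreated and 5.17, 5.30 and 6.05 at day 7 (1.47), and its groups overlapped by 1 day 7 array. It was 1 of 3 genes of the list that passed the filter only through day 7, and of the other 24, 23 rose (median 2.71).

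The lists of vessel subtypes had smaller medians. Of 11 capillary genes 9 rose (median 1.53). Btnl9, a butyrophilin-like gene of capillaries, read 3.34, 3.75 and 5.52 untreated and 7.35, 7.56 and 6.80 at day 7 (3.03, adjusted p 0.000915). Timp4, a metalloproteinase inhibitor, read 3.57, 4.45 and 4.41 untreated and 6.74, 6.56 and 6.58 at day 7 (2.49, adjusted p 6.86e-05). Apln, the ligand of the apelin receptor, read 4.11, 4.20 and 4.02 untreated and 5.49, 5.69 and 5.75 at day 7 (1.53, adjusted p 2.49e-05). For all 3 the groups were apart, and untreated replicate 3 was the highest untreated array for Btnl9 alone. Of 7 venous genes 6 rose (median 1.18), including Ackr1, a chemokine-binding receptor of venules, by 1.18 (adjusted p 0.000125) and Nr2f2, the factor that sets venous identity, by 1.68 (adjusted p 0.00215). Vwf, the clotting adhesion protein, read 7.78, 6.84 and 9.29 at day 7 against 4.61, 5.41 and 6.32, with day 7 replicate 3 far above the others. Of 11 arterial genes 7 rose and 0 fell (7 to 8 rises and 0 to 1 falls with 1 array left out), but their median of 0.59 turned to -0.31 when arrays were centred on fibroblasts. Of these genes 2 passed the filter only through day 7, and of the other 9, 6 rose. Hey1, a Notch target of arteries, rose by 1.46 (adjusted p 1.57e-05) and Vegfc, a ligand of lymphatic growth, by 1.26 (adjusted p 0.000193). The 4 tested genes of the lymphatic list rose (median 1.83). Prox1, Lyve1 and Flt4, which define lymphatic vessels, were too dim to test, so the list rests on genes that other cells share.

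Perivascular and mesothelial genes were above untreated as well. Of 14 pericyte genes 13 rose and 0 fell (median 1.70, or 1.35 where dim genes were set to their bounds), and 11 of the 12 that did not pass the filter through day 7 alone. Kcnj8, the pore of a potassium channel of pericytes, read 4.27, 4.19 and 5.18 untreated and 7.49, 7.52 and 7.32 at day 7 (2.90, adjusted p 5.87e-05), and its regulatory partner Abcc9 read 7.71, 8.41 and 8.51 untreated and 10.31, 10.01 and 10.17 at day 7 (1.95, adjusted p 0.000138). Gucy1a1, a subunit of the nitric oxide receptor, read 4.81, 5.77 and 6.53 untreated and 8.06, 8.47 and 8.76 at day 7 (2.73, adjusted p 0.00048). The groups were apart in all 3. Higd1b, a small mitochondrial protein gene of pericytes, was below the detection level in untreated, passed the filter through day 7 alone and was at least 1.93-fold higher there. Of 13 mesothelial genes 12 rose (median 1.84): Gpm6a, a membrane glycoprotein, read 7.01, 7.54 and 8.05 untreated and 9.81, 10.13 and 9.88 at day 7 (2.41, adjusted p 0.00014). Upk3b, a uroplakin of mesothelial surfaces, read 7.43, 8.30 and 8.56 untreated and 9.90, 10.65 and 10.12 at day 7 (2.13, adjusted p 0.00076). The means of the mesothelial list were 6.23, 6.72 and 6.86 in untreated and 8.11, 8.55 and 8.35 at day 7, and they do not overlap. Of 10 smooth muscle genes 4 rose and 0 fell (3 to 7 rises and 0 falls with 1 array left out). Their list means were 7.27, 7.57 and 7.52 in untreated and 7.90, 7.95 and 9.30 at day 7, with replicate 3 far above the other day 7 arrays, and the median of 0.84 turned to -0.06 after centring on fibroblasts. Myl9, a light chain of smooth muscle myosin, read 7.02, 7.54 and 7.59 in untreated, 6.17, 5.35 and 5.96 at day 4 and 8.63, 8.84 and 10.39 at day 7 (1.90 against untreated, adjusted p 0.00535).

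Fibroblast genes were above untreated, by a smaller median than pericytes or mesothelium. Of 19 fibroblast genes 15 rose and 1 fell (median 0.91, near 0 by construction after centring on that list). Fbln1, a matrix glycoprotein, read 7.50, 8.13 and 7.63 untreated and 9.53, 9.36 and 9.21 at day 7 (1.61, adjusted p 0.00048). Loxl1, which cross-links elastin, read 7.30, 8.31 and 7.52 untreated and 9.48, 9.50 and 9.22 at day 7 (1.69, adjusted p 0.000875). The groups were apart in both. The 1 gene that fell was Thy1, which thymocytes express too (-1.37, adjusted p 0.000307). Pdgfra, the platelet-derived growth factor receptor of fibroblasts, was weaker, at 8.98, 9.80 and 9.26 untreated and 10.18, 9.96 and 9.87 at day 7 (0.66, adjusted p 0.0286), and no longer passed when untreated replicate 3 was left out (0.61, adjusted p 0.0715). Without untreated replicate 3, 12 of the 19 genes rose. Of 12 adventitial fibroblast genes 9 rose and 0 fell (median 0.84, which turned to -0.05 after centring on fibroblasts), among them Dact2, a regulator of WNT and TGF-beta signalling, by 1.36 and Aldh1a3, an enzyme of retinoic acid synthesis, by 1.75 (adjusted p 6.51e-05 and 7.48e-05). Of 6 adipocyte genes, 2 of which passed the filter only through day 7, 2 others rose: Cox8b, a respiratory chain gene of brown fat, was at least 6.92-fold higher, and Car3, a carbonic anhydrase of fat, read 6.50, 7.93 and 7.03 untreated and 9.95, 10.54 and 9.02 at day 7 (2.68, adjusted p 0.00946).

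Cortical genes were above untreated, genes of the Aire stage and the keratinising medullary genes were far below it, and the basal and immature medullary list was split. Of 14 cortical genes 10 rose and 0 fell, with a median of 0.52 that lay above that of all genes and turned to -0.38 after centring on fibroblasts. Dll4, the Notch ligand that commits precursors to the T-cell fate, read 4.37, 4.57 and 4.53 untreated and 6.15, 6.59 and 6.20 at day 7 (1.82, SE 0.13, adjusted p 2.18e-05). Vessel genes rose in the same mixture, and which cells carried the rise of Dll4 was not tested. Slc46a2, a transporter gene of thymic epithelium, read 9.50, 9.73 and 9.66 untreated and 10.90, 10.91 and 10.80 at day 7 (1.24, adjusted p 2.43e-05). Psmb11, the proteasome subunit found in cortical epithelium, read 10.88, 10.63 and 11.08 untreated and 11.60, 11.71 and 11.68 at day 7 (0.80, adjusted p 0.000621). All 3 had groups that did not overlap. Foxn1, the transcription factor that thymic epithelium depends on, rose by 0.85 (adjusted p 0.000721), and after centring on fibroblasts Psmb11 and Foxn1 were at -0.09 and -0.04. The general epithelium list, with 19 genes, had 4 rises and 7 falls (median -0.08, or 0.26 when arrays were centred on it). The keratin genes Krt8 and Krt18 rose by 0.52 and 0.70 (-0.38 and -0.20 after centring on fibroblasts), Spint2, a protease inhibitor, fell by 0.69, and Epcam, an adhesion molecule of epithelium, read 11.30, 11.56 and 10.69 untreated and 10.83, 10.84 and 10.69 at day 7 (adjusted p 0.115). Without untreated replicate 3 Epcam was called lower (-0.65, adjusted p 0.00289).

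Of 11 genes of the Aire stage 9 fell and 0 rose (median -1.78). Aire, which switches on antigens of other tissues in the medulla, read 9.73, 9.59 and 8.54 untreated and 7.56, 7.32 and 7.06 at day 7 (-1.97, adjusted p 0.000799). Cd52, a small surface glycoprotein that lymphocytes carry too, read 10.76, 10.63 and 9.83 untreated and 7.69, 7.66 and 7.32 at day 7 (-2.85, adjusted p 4.84e-05). Traf1, an adaptor of TNF receptors, read 6.06, 5.79 and 5.71 untreated and 4.14, 3.43 and 3.75 at day 7 (-2.08, adjusted p 6.28e-05). Every day 7 value of these genes lay below every untreated value. Untreated replicate 3 was the lowest untreated array in all 11 genes of the list, and without it 9 fell with a median of -2.04. Of 13 keratinising genes 11 fell (median -1.84, with bounds -1.71), among them Calm4, a calmodulin-like protein of epidermis, at 7.85, 8.01 and 6.36 untreated and 3.96, 3.73 and 4.25 at day 7 (-3.43, adjusted p 0.000193), and Flg, filaggrin, by at least 6.14-fold. Of the 11 keratinising genes that did not pass the filter through untreated alone, 9 fell. Of 11 basal and immature medullary genes 3 rose and 5 fell (2 to 3 rises and 3 to 5 falls with 1 array left out, median -0.12, turning to 0.22 after centring on general epithelium). Krt14, a basal keratin, fell by 1.15 (adjusted p 0.00169), and Col17a1, a hemidesmosome collagen, fell by 1.74 (adjusted p 0.000941).

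Microfold genes and the antigens of other tissues lay far below untreated. Of 8 microfold genes 6 fell (median -1.87, with bounds -1.69). Ccl20, a chemokine that draws lymphocytes to epithelium, read 8.79, 9.19 and 7.55 untreated and 3.84, 4.52 and 3.75 at day 7 (-4.47, SE 0.41, adjusted p 6.49e-05), and Ccl6 read 8.43, 8.92 and 7.39 untreated and 4.50, 4.26 and 5.05 at day 7 (-3.64, adjusted p 7.82e-05). The day 7 arrays lay well below all untreated arrays in both. All 12 tested liver and gut antigens fell (median -3.07, with bounds -2.40; 11 further genes of the list were too dim). Saa1, a serum amyloid of the liver, read 8.84, 8.97 and 7.33 untreated and 4.58, 4.15 and 4.36 at day 7 (-4.02, adjusted p 7.74e-05). Apoa4, an apolipoprotein of the gut, read 8.60, 8.64 and 7.29 untreated and 5.50, 4.96 and 5.03 at day 7 (-3.01, adjusted p 0.000387). Lypd8, a gut surface protein, read 8.30, 8.62 and 6.56 untreated and 4.13, 3.69 and 3.72 at day 7 (-3.98, adjusted p 0.000344). Untreated replicate 3 was lowest of the untreated arrays in all 12 genes, and its list mean of 6.24 lay below 7.59 and 7.76 but above the day 7 means of 4.37, 4.24 and 4.39. At day 4 the list means were 6.88, 7.00 and 6.08, and 9 of the 12 genes were lower at day 7 than at day 4.

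Of 11 gland and milk genes 7 fell (0 to 1 rises and 6 to 7 falls with 1 array left out, median -1.42), including Wfdc18, a whey acidic protein relative, at 12.57, 12.76 and 11.82 untreated and 10.49, 10.45 and 10.15 at day 7 (-2.02, adjusted p 0.000175), and Scgb1a1, a secretoglobin of airways, at 8.52, 8.87 and 7.21 untreated and 4.16, 5.59 and 5.61 at day 7 (-3.08, adjusted p 0.000815). Neuroendocrine genes were mixed. Of 11 tested, 6 fell and 2 rose (median -0.62). Syt1, a sensor of synaptic vesicle release, fell by 2.44 (adjusted p 0.000364), whereas Chga, a granule protein of endocrine cells, rose from 8.45, 8.37 and 7.30 to 11.20, 10.10 and 10.12 (2.44, adjusted p 0.00111). On the parathyroid list, Pth, the hormone gene, rose from 11.44, 11.45 and 10.90 to 13.72, 13.08 and 13.12 (2.04, adjusted p 0.000247), and day 7 replicate 1 was the highest array for both. The list had 2 tested genes, and the other, Gata3, fell, so that the list median was -0.05. Casr and Tbx1 of that list were too dim to test, and Gcm2 was not analysed here. Of 9 tuft genes 4 fell and 0 rose (median -0.97), and 7 fell without untreated replicate 3 (0 rises and 3 to 7 falls with 1 array left out), but Pou2f3 and Il25, which define tuft cells, were too dim to test. Of 5 ciliated genes 2 rose and 1 fell (1 to 3 rises and 0 to 1 falls with 1 array left out, median 0.46, turning to -0.43 after centring on fibroblasts), and of 6 Schwann and glial genes 2 rose and 3 fell.

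Blood-cell transcripts were present in the CD45-depleted fraction and differed between the groups. All 23 tested thymocyte and T-cell genes fell (median -2.71, with bounds -2.60), and the mean of their log2 values was 9.23 to 9.68 in untreated and 6.74 to 6.83 at day 7, against 3.64 to 3.87 at day 4. Of these genes 3 passed the filter only through untreated, as did 3 of the 19 mitosis and 3 of the 8 neutrophil genes. Ptprc read 12.25, 11.96 and 12.45 in untreated, 4.18, 4.52 and 5.22 at day 4 and 9.63, 9.26 and 9.64 at day 7 (-2.71 against untreated, adjusted p 6.86e-05). All 19 mitosis genes were lower than in untreated (median -1.73), and 17 of them were higher than at day 4, among them Top2a, the topoisomerase of dividing cells, at 10.77, 10.23 and 10.78 in untreated, 4.44, 4.63 and 4.84 at day 4 and 8.65, 8.70 and 8.91 at day 7. Of 8 neutrophil genes 6 fell (median -2.33, with bounds -1.30, and 3 of the 5 others at a median of -1.31), with S100a8, an alarmin of neutrophils, at 10.53, 11.12 and 9.65 untreated and 6.26, 6.80 and 6.45 at day 7 (-3.93, adjusted p 4.49e-05). The part of these cells in the differences of other genes was not tested.

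Outside the compartment and programme lists, 10152 genes were tested, of which 3158 (31.1%) were higher and 2180 (21.5%) lower. The 20 largest rises with both groups above the detection level and no overlap between them ranged from 2.27 to 3.11. Slc9a3r2, a scaffold protein that ties ion exchangers to the cell cortex, led, with 3.62, 4.59 and 4.32 in untreated and 7.41, 7.32 and 7.14 at day 7 (3.11, SE 0.21, adjusted p 1.83e-05), and its other probe sets gave as little as 1.41. Rbp7, a retinol-binding protein, read 4.23, 4.13 and 4.95 untreated and 7.47, 7.73 and 7.33 at day 7 (3.07, adjusted p 2.18e-05). All day 7 arrays of both genes lay above all untreated arrays. The caveolar coat, which shapes small pits of the plasma membrane, was represented by Cavin2, at 6.53, 7.64 and 8.94 untreated and 10.56, 10.78 and 10.77 at day 7 (8-fold, adjusted p 0.00105), and by its scaffold Cav1, at 8.14, 8.64 and 9.96 untreated and 11.38, 11.48 and 11.46 at day 7 (2.53, adjusted p 0.000799). In both, the untreated arrays were far apart, with replicate 3 the highest, and the day 7 arrays lay close together above all of them.

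Several of the other rises encode surface proteins. Cd93, a lectin-like receptor of endothelium, read 5.07, 5.39 and 7.42 untreated and 9.12, 8.75 and 8.67 at day 7 (2.89, adjusted p 0.00273). Adgrf5, an adhesion G protein-coupled receptor, read 6.01, 6.66 and 8.30 untreated and 9.87, 9.81 and 9.69 at day 7 (2.80, adjusted p 0.00134). Jam2, a junctional adhesion molecule, rose by 2.66, the water channel Aqp1 by 2.54, the amine oxidase Aoc3 by 2.50, the tetraspanin Tspan4 by 2.47, and the voltage-gated sodium channel Scn1a by 2.27 (adjusted p 0.000787, 0.00268, 0.00128, 2.71e-05 and 3.89e-05). Untreated replicate 3 was the highest untreated array for 15 of the 20 genes, the array with the high endothelial mean, and without it all 20 were still called, with differences of 2.25 to 3.62. Genes with other roles were Unc45b, a myosin chaperone, at 2.79, Fmo2, a flavin monooxygenase, at 2.54, Osr1, a transcription factor of mesenchyme, at 2.43, and Aebp1, a matrix protein of fibroblasts, at 2.27 (adjusted p 0.000419, 0.000158, 0.0014 and 9.28e-05). Of the 20 rises, 11 were also higher than at day 4, 0 were lower and 9 passed neither way.

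**Figure D2:**
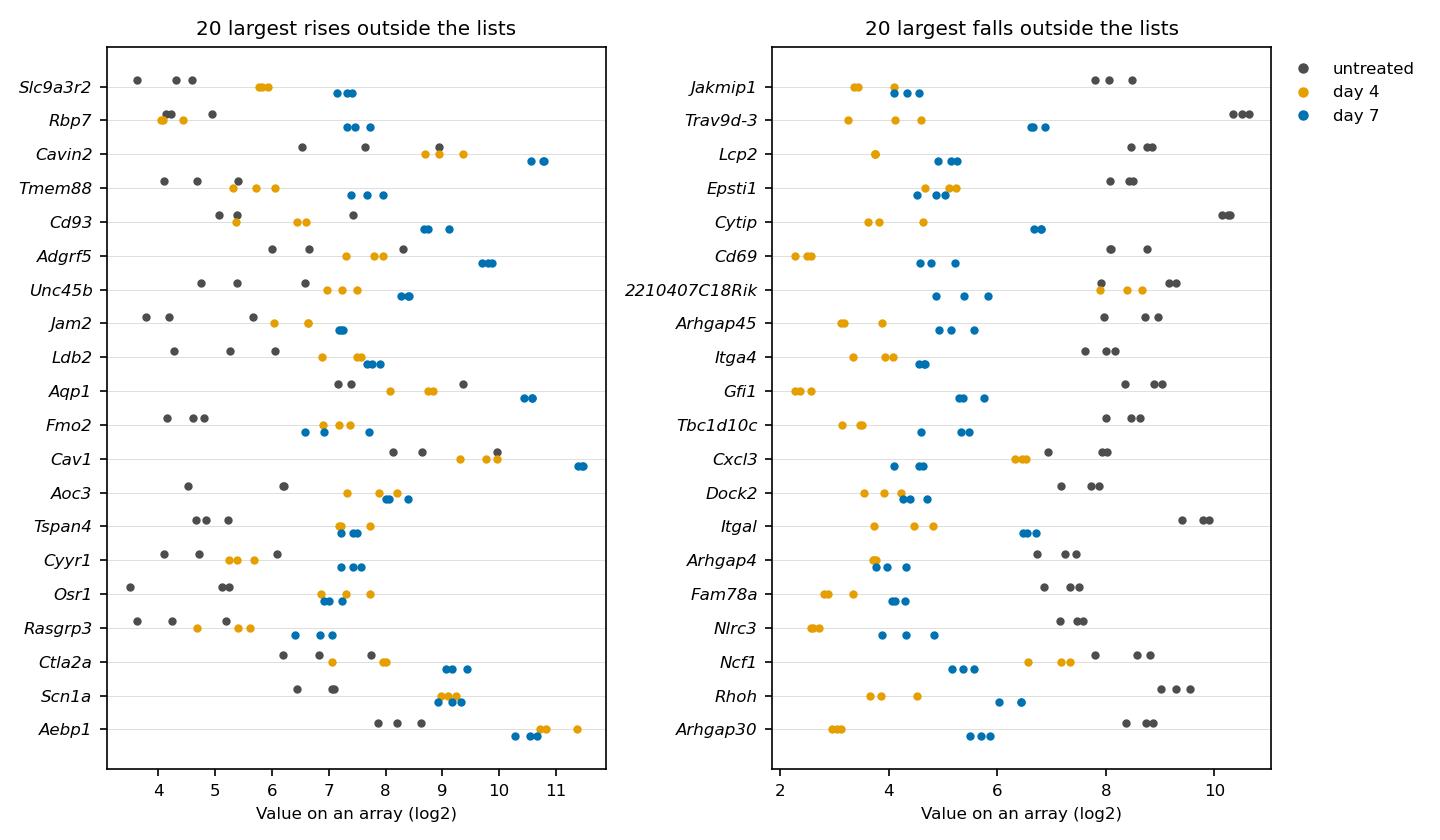
Each point is the log2 value of a gene on 1 array for the 20 largest rises (left) and 20 largest falls (right) outside the lists; grey is untreated, orange day 4 and blue day 7. The genes were chosen for blue and grey points that do not overlap, and for most falls the orange points lie below the blue ones.

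Genes that no untreated array held above the detection level rose by bounds. Phex, a membrane peptidase of phosphate balance, was below 4 on all untreated arrays and read 5.96, 6.46 and 6.97 at day 7, at least 5.51-fold higher (adjusted p 4.77e-05). A further 4 passed the filter only through day 7: Colec11, a collectin of innate immunity, was at least 3.99-fold higher, Cdh13, a cadherin anchored by a lipid, at least 3.78-fold and Slc26a3, an anion exchanger, at least 3.43-fold. Sox7, a transcription factor of endothelium, was the fourth and read 5.46, 5.48 and 5.32, at least 2.67-fold higher. Rcan2, a calcineurin regulator, was at least 3.44-fold higher, but day 7 replicate 3 read 7.31 against 4.95 and 5.08 on the other day 7 arrays.

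The 20 largest falls outside the lists, taken like the rises with no overlap between the groups, ranged from -3.78 to -2.98. They included genes known from blood cells. Lcp2, an adaptor of T-cell receptor signalling, read 8.76, 8.46 and 8.85 untreated and 4.90, 5.15 and 5.26 at day 7 (-3.59, SE 0.13, adjusted p 8.12e-07). Cytip, a regulator of leukocyte adhesion, read 10.25, 10.13 and 10.29 untreated and 6.68, 6.81 and 6.81 at day 7 (-3.45, adjusted p 1.36e-05). Gfi1, a transcriptional repressor of blood cells, read 8.89, 8.36 and 9.03 untreated and 5.36, 5.30 and 5.75 at day 7 (-3.29, adjusted p 8.5e-06). The day 4 means of these 3 genes, 3.74, 4.02 and 2.40, lay lower still. The integrin subunits Itgal and Itga4 (differences -3.13 and -3.30) fell, as did Cd69, an early activation marker, at -3.45 (adjusted p 3.9e-05, 1.03e-05 and 1.24e-05). Of the 20 falls, 13 were higher at day 7 than at day 4, 3 were lower and 4 passed neither way. The 3 that had fallen further than at day 4 were 2210407C18Rik, Cxcl3 and Ncf1. Cxcl3, a chemokine for neutrophils, read 7.92, 8.02 and 6.93 in untreated, 6.52, 6.46 and 6.32 at day 4 and 4.09, 4.63 and 4.56 at day 7 (-3.20 against untreated, adjusted p 4.79e-05). Ncf1, a subunit of the phagocyte NADPH oxidase, read 8.58, 8.82 and 7.79 untreated, 7.33, 7.17 and 6.57 at day 4 and 5.36, 5.56 and 5.16 at day 7 (-3.03, adjusted p 6.67e-05). Below the detection level at day 7 were Rasal3, at least 14-fold lower, the lymphoid transcription factor gene Ikzf3, at least 8.98-fold lower, and, among genes that are not of blood cells, the epithelial serpin gene Serpinb12, at least 7.5-fold lower. All 3 passed the filter only through untreated.

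A smaller set of genes also differed between day 4 and day 7. The 3-prime excess of Actb and Gapdh was larger at day 4 than at day 7, and its part in this comparison was not tested. Against day 4, 1070 genes (9.78%) were higher at day 7 and 1921 (17.6%) lower. The share of these calls that were higher was 35.8%, and it was 92.2% after centring on general epithelium, 74.5% on fibroblasts, 47.5% on the tested genes and 46.3% after quantile normalization. Of the 3509 genes above untreated, 312 were also above day 4, 711 were below day 4 and 2486 passed neither way, and of the 2406 genes below untreated, 403 were also below day 4, 480 above it and 1523 neither. Among genes on no list, the late rises included Rbp7, which read 4.09, 4.05 and 4.44 at day 4, overlapping the untreated arrays, and was 3.31 higher at day 7 (adjusted p 2.1e-05). Tmem88, a membrane protein that dampens WNT signalling, read 5.73, 5.31 and 6.05 at day 4 and 7.96, 7.67 and 7.39 at day 7 (adjusted p 0.00285 against day 4). Cav1 and Cav2, the caveolins, were 1.77 and 1.75 higher than at day 4 (adjusted p 0.0119 and 0.00208), and Bag3, a co-chaperone of stressed and contractile cells, was 1.65 higher (adjusted p 0.00501). Tsks, a testis kinase substrate gene, was also among the 12, at 5.64, 5.85 and 4.32 in untreated and 7.41, 7.50 and 6.59 at day 7. All 12 late rises kept their call against untreated under each alternative run for genes, with differences of 1.42 to 3.62 without untreated replicate 3. They were chosen for large differences, and their call against day 4 was not followed under the alternatives.

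The late falls included secreted proteins known from other organs. Spink1, a trypsin inhibitor of the pancreas, read 9.80, 9.99 and 8.50 in untreated, 9.59, 9.81 and 8.77 at day 4 and 7.04, 7.13 and 7.14 at day 7 (-2.33 against untreated, adjusted p 0.0011). Sftpd, a lung surfactant protein, read 7.73, 8.00 and 6.56 untreated, 7.71, 7.77 and 7.06 at day 4 and 4.88, 5.37 and 5.35 at day 7 (-2.23, adjusted p 0.000912), and Tff3, a trefoil peptide of mucus, 7.52, 8.01 and 6.41 untreated, 7.12, 7.52 and 6.11 at day 4 and 4.90, 4.88 and 4.80 at day 7 (-2.46, adjusted p 0.00147). In these genes the day 4 arrays overlapped the untreated ones. The day 7 arrays lay below both, and the genes were chosen for falls against both groups. The difference was -2.42 for Defb6, a beta-defensin, -2.90 for Fabp9, a fatty acid-binding protein of testis, -2.66 for Wfdc17, with a protease-inhibitor fold, -2.04 for Anxa10, an annexin, and -2.09 for the chemokine gene Ccl5 (adjusted p 0.000792, 0.000957, 0.000322, 0.00144 and 0.000634). Untreated replicate 3 was the lowest untreated array in all 12 late falls, and without it they differed by -3.88 to -2.49. The thymocyte list moved the other way between day 4 and day 7, with 19 of its 23 genes higher at day 7.

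**Figure D3:**
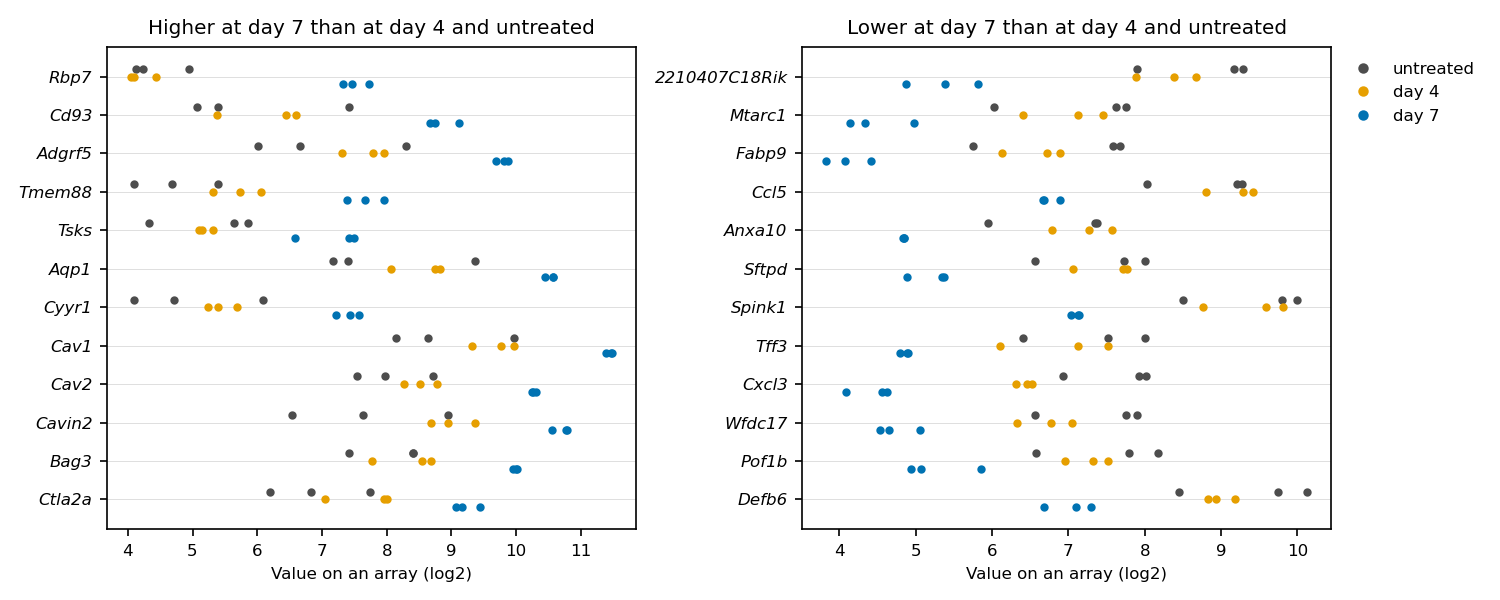
Log2 values by array for the 12 genes outside the lists that were higher (left) and the 12 that were lower (right) at day 7 than both at day 4 and in untreated; grey is untreated, orange day 4 and blue day 7. The genes were chosen for blue points that differ from both other groups, and grey and orange overlap for most genes.

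Gene families, grouped by symbol stem and without list members, varied in how far they were displaced. Among 13 olfactomedin, CTRP and EGF-like genes, which encode secreted proteins, 10 rose and 1 fell (median 1.04, and 0.14 after centring on fibroblasts). Olfml3, a matrix olfactomedin, read 4.75, 5.86 and 4.98 untreated and 7.29, 7.12 and 7.14 at day 7 (1.98, adjusted p 0.000746), whereas Olfm4, a glycoprotein of gut crypts and neutrophils, read 9.26, 9.39 and 8.06 untreated and 6.63, 6.85 and 6.60 at day 7 (-2.21, adjusted p 0.000814). These 2 were named as the largest called rise and fall among members whose groups did not overlap. Their separation and opposite directions follow from that choice. Of 15 aldehyde and alcohol dehydrogenases 11 rose and 1 fell (10 to 11 rises and 0 to 3 falls with 1 array left out, median 0.52, turning to -0.38 after centring on fibroblasts), among them Adh1, a retinol and ethanol dehydrogenase, by 1.16 (adjusted p 0.00532). Of 18 cytochromes P450 11 rose and 2 fell (8 to 12 rises and 0 to 3 falls with 1 array left out, median 0.75, turning to -0.15), with Cyp2d22 at 4.78 ± 0.51 and 6.67 ± 0.20 (SD, n = 3; difference 1.89, limma adjusted p 0.000256). Of 14 glutathione and sulfotransferases 7 rose and 2 fell (7 rises and 1 to 2 falls with 1 array left out, median 0.79, turning to -0.10), with Gsta3, a glutathione transferase, up by 1.99 and Mgst2, a membrane-bound one, down, at -1.84 (adjusted p 0.000312 and 7.04e-05). Of 8 ephrins and Eph receptors, which signal between touching cells, 6 rose and 1 fell (median 0.70, turning to -0.19), with the ligand Efna1 up by 1.22 (adjusted p 0.000322).

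SPINK, WFDC and cystatin genes, which encode protease inhibitors, were mostly below untreated, and serpins went both ways. The stem for SPINK, WFDC and cystatin genes took 11, of which 0 rose and 9 fell (median -1.41), but 4 of them were cleavage stimulation factor genes that share the stem. Of the other 7, 6 fell, with a median of -2.22, among them Wfdc17 and Spink1 from the late falls. Of 17 serpins 8 fell and 2 rose (2 to 4 rises and 7 to 10 falls with 1 array left out, median -0.46), with the epithelial Serpinb7 at 7.03, 7.22 and 5.41 untreated and 3.43, 4.54 and 4.22 at day 7 (-2.49, adjusted p 0.00254) and the collagen chaperone Serpinh1 at 10.23, 10.77 and 10.60 untreated and 11.79, 11.70 and 11.54 at day 7 (1.14, adjusted p 0.00225). Among the serpins 2 passed the filter only through untreated and 1 only through day 4, and of the other 14, 5 fell and 2 rose. Of 15 kallikrein and serine protease genes 7 fell and 4 rose (median -0.27, turning to 0.07 after centring on general epithelium), with Klk1, a tissue kallikrein, down, at -2.19 (adjusted p 0.000602). Regulators of G protein signalling, RGS proteins, had 6 falls and 1 rise among 10 (median -0.78), including Rgs2 at 10.49, 10.61 and 10.65 untreated and 8.19, 7.96 and 8.48 at day 7 (-2.37, adjusted p 7.18e-05). Among 9 guanylate-binding and immunity GTPases 6 fell and 2 rose (0 to 2 rises and 6 falls with 1 array left out, median -1.17), the fall led by Gbp8 (-2.08, adjusted p 1.57e-05). Gimap4 rose, at 6.87, 6.96 and 7.80 in untreated, 6.44, 5.50 and 6.23 at day 4 and 8.39, 8.26 and 8.12 at day 7 (1.05, adjusted p 0.014).

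**Figure D4:**
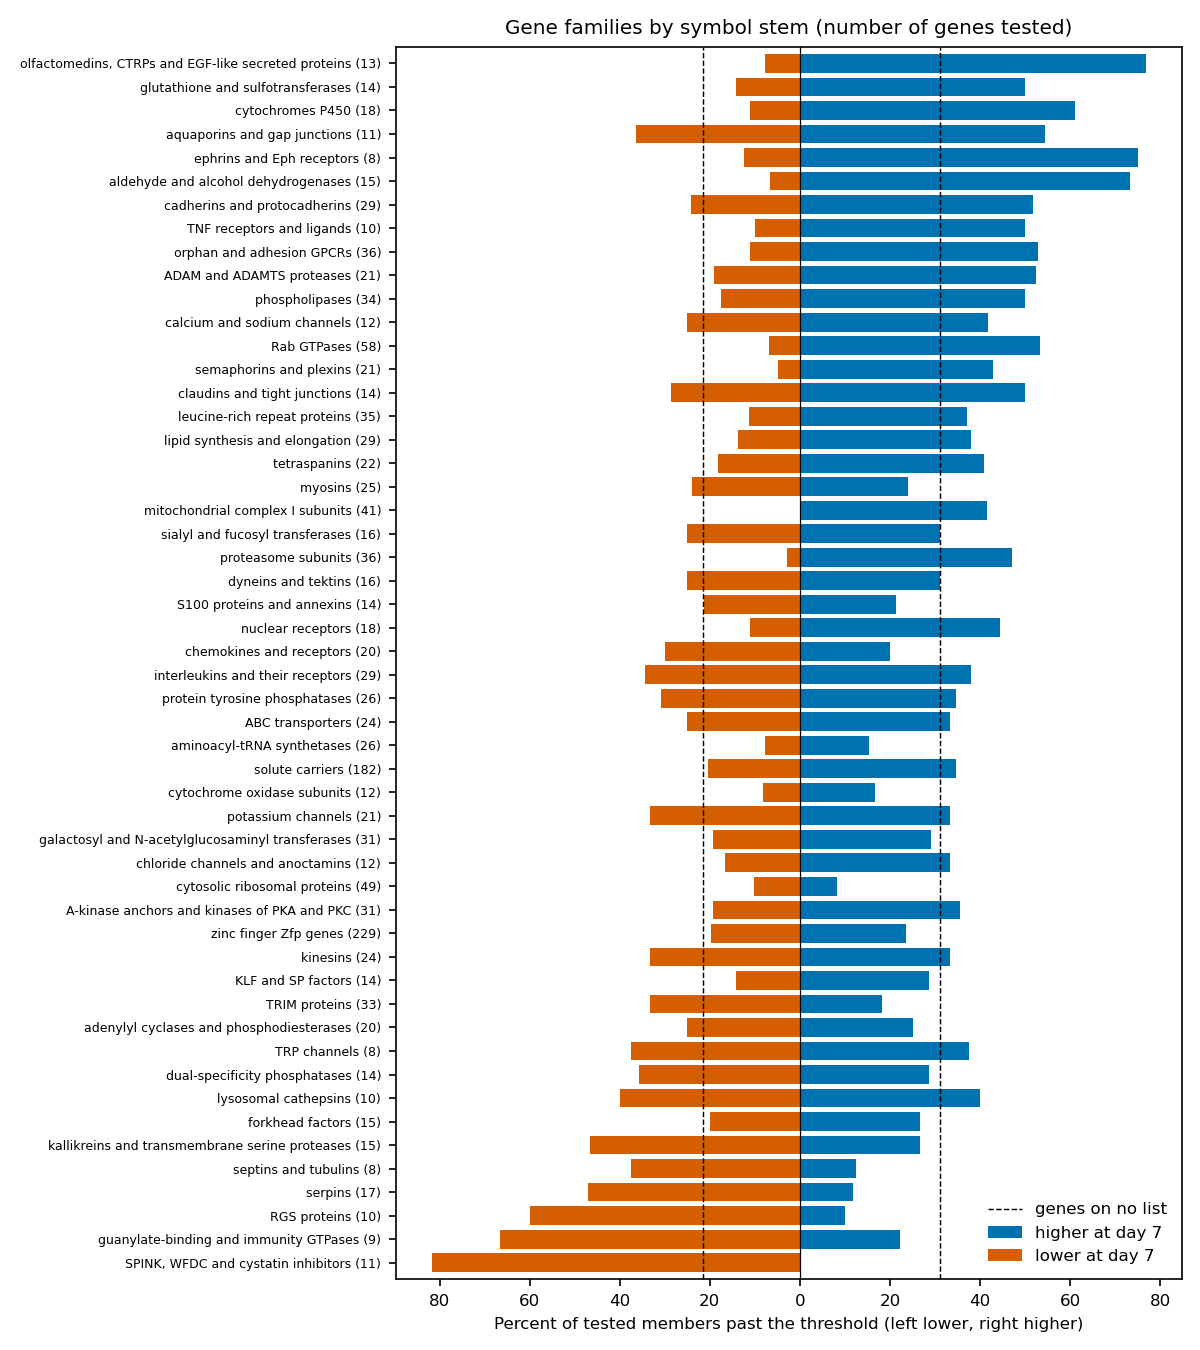
Bars give the percent of tested members of a family (number in brackets) that passed the threshold, for the families shown, to the right for higher at day 7 and to the left for lower; dashed lines mark 31.1% and 21.5%, the shares over genes on no list. Olfactomedin and CTRP genes stand at the top and SPINK, WFDC and cystatin genes at the bottom, and ribosomal proteins have short bars both ways.

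Large families of basic cell functions are read against the 31.1% of genes on no list that were higher and the 21.5% that were lower. Of 49 genes with a ribosomal protein stem 4 rose and 5 fell (4 to 7 rises and 2 to 5 falls with 1 array left out, median 0.03, turning to -0.87 after centring on fibroblasts and to -0.01 after centring on the tested genes). The stem also took 5 genes of kinases or a binding protein, and of the other 44, 3 rose and 3 fell. Of 229 Zfp zinc finger genes 54 rose and 45 fell (37 to 55 rises and 27 to 54 falls with 1 array left out, median -0.03, turning to 0.31 after centring on general epithelium and to 0.10 after quantile normalization), with 43 rises and 29 falls without untreated replicate 3. Of 41 complex I genes 17 rose and 0 fell (12 to 21 rises and 0 to 1 falls with 1 array left out, median 0.22, turning to -0.67 after centring on fibroblasts). The stem also took 8 assembly factor genes, of which 5 rose, and of the other 33, 12 rose and 0 fell (median 0.19). Without untreated replicate 3, 12 of the 41 rose and 1 fell. In that fit 3091 of all genes tested were higher, against 3509 in the main fit, so the 31.1% does not apply to it. Of 36 proteasome genes 17 rose and 1 fell (9 to 17 rises and 0 to 1 falls with 1 array left out, median 0.21, turning to -0.69). But 11 rose without untreated replicate 3, 10 without untreated replicate 1 or day 7 replicate 3, 9 without day 7 replicate 2 and 12 after centring on the tested genes. In these fits 2845 to 3317 of all genes tested were higher, fewer than in the main fit, so the 31.1% does not apply to them. Of 58 Rab GTPase genes, which direct membrane traffic, 31 rose and 4 fell (24 to 30 rises and 1 to 4 falls with 1 array left out, median 0.30, turning to -0.59), led by Rab34, at 7.19, 7.77 and 7.28 untreated and 9.09, 9.13 and 8.97 at day 7 (1.65, adjusted p 5.33e-05).

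Matrix programmes were high as whole lists, and the fibrillar list shares collagen genes with the fibroblast list. Of 21 basement membrane genes 19 rose and 0 fell (median 0.97, and 0.07 after centring on fibroblasts). Col4a5, a chain of collagen IV, read 7.24, 7.67 and 7.64 untreated and 9.21, 9.17 and 9.56 at day 7 (1.80, adjusted p 4.34e-05). Col18a1, the source of endostatin, read 6.45, 6.96 and 6.62 untreated and 8.19, 7.92 and 8.15 at day 7 (1.41, adjusted p 9.28e-05). The groups were apart in both, and Frem2, a basement membrane protein of epithelium, was at least 2.52-fold higher. Of 37 fibrillar and elastic matrix genes 32 rose and 0 fell (median 0.91, and 0.02 after the same centring), with Efemp1, a fibulin, at 1.74, Vcan, a large proteoglycan, at 1.56 and Fmod, which binds collagen fibrils, at 1.61 (adjusted p 0.000248, 0.000185 and 0.000314). Fmod was at 8.67, 8.53 and 8.57 on the day 4 arrays, among the untreated values of 7.95, 8.70 and 8.53, and at 9.82, 9.83 and 10.36 at day 7. Of 26 heparan and chondroitin sulfate genes 15 rose and 5 fell (11 to 15 rises and 3 to 5 falls with 1 array left out, median 0.44, turning to -0.45), with Sulf1, a sulfatase that edits heparan sulfate outside the cell, up by 1.37 (adjusted p 5.08e-05).

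Among signalling programmes, 15 of 19 genes of the YAP and TEAD list rose and 1 fell (median 1.04, and 0.15 after centring on fibroblasts). With 1 array left out it had 13 to 16 rises and 0 to 1 falls. The list mixes targets of a pathway that reads cell shape and stretch with parts of the pathway itself. Its counts are therefore not a reading of pathway output alone. The coactivator Yap1 read 8.24, 8.34 and 8.30 untreated and 9.50, 9.31 and 9.41 at day 7 (1.11, adjusted p 4.34e-05). Tead1, its DNA-binding partner, read 7.06, 7.13 and 7.17 untreated and 8.09, 8.08 and 8.02 at day 7 (0.94, adjusted p 3.92e-05). Amotl1, a junction protein that binds Yap1, read 9.35, 9.47 and 9.63 in untreated, 11.59, 11.64 and 11.49 at day 4 and 10.69, 10.64 and 10.58 at day 7, above untreated and below day 4. Of 21 TGF-beta and BMP genes 13 rose and 1 fell (10 to 13 rises and 1 to 2 falls with 1 array left out, median 0.68, turning to -0.21), with the inhibitor Smad6 up by 1.74 and Gata6, a mesodermal transcription factor, by 2.17 (adjusted p 8.05e-05 and 5.72e-05). Of 19 WNT genes 13 rose and 2 fell (median 0.91, and 0.01 after centring), with Wnt4, a ligand made by thymic epithelium, at 9.15, 9.29 and 9.21 untreated and 10.19, 10.14 and 10.05 at day 7 (0.91, adjusted p 6.05e-05), and Lef1, a nuclear effector that thymocytes use, lower, at -2.56 (adjusted p 1.3e-05). Of 13 Hedgehog genes 9 rose and 1 fell (7 to 9 rises and 0 to 1 falls with 1 array left out, median 0.54, turning to -0.35), with the transcription factor Gli2 up by 1.15 (adjusted p 9.47e-05), and of 18 planar polarity genes 10 rose and 2 fell (9 to 10 rises and 2 to 4 falls with 1 array left out, median 0.51, turning to -0.38), with the receptor Fzd3 up by 1.36 (adjusted p 4.49e-05). Of 13 tip cell genes of sprouting vessels 9 rose and 1 fell (median 0.93, and 0.03 after centring), the fall being Cxcr4, which thymocytes also express, at -2.64 (adjusted p 8.39e-05). The tip cell list shares collagen IV, laminin and nidogen genes with the basement membrane list.

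Vessel tone, clotting and lipid genes were largely above untreated, but their lists share members with the lists of vessels and pericytes. Gpihbp1 is also pan-endothelial, Apln capillary, Vwf venous and Gucy1a1 a pericyte gene, so a rise can be counted in more than 1 list. Of 17 vasoactive genes 11 rose and 2 fell (median 0.74, turning to -0.15), with Agtr1a, an angiotensin receptor, at 4.09, 3.91 and 4.26 untreated and 5.61, 6.04 and 5.52 at day 7 (1.64, adjusted p 7.48e-05), and Ramp1, a co-receptor for the peptide CGRP, lower, at -1.82 (adjusted p 0.000232). Of 13 nitric oxide and cGMP genes 7 rose and 2 fell (7 to 8 rises and 0 to 2 falls with 1 array left out, median 0.54, turning to -0.36), including Prkg1, the cGMP-dependent kinase, by 1.66 (adjusted p 0.000536). Of 15 haemostasis genes 11 rose and 1 fell (median 0.90, and 0.01 after centring). F3, tissue factor, read 7.52, 8.06 and 7.65 untreated and 8.89, 9.23 and 8.92 at day 7 (1.27, adjusted p 0.000212), Gas6, a vitamin K-dependent ligand, rose by 0.90 (adjusted p 0.000119), and the single fall was F13a1, the clot-stabilising factor, at 8.55, 7.88 and 8.45 in untreated, 2.58, 3.22 and 2.75 at day 4 and 5.30, 5.09 and 5.26 at day 7. Of 22 lipid uptake genes 15 rose and 2 fell (13 to 16 rises and 1 to 2 falls with 1 array left out, median 0.97, and 0.08 after centring), with Vldlr, a lipoprotein receptor, at 8.68, 9.40 and 9.09 untreated and 10.70, 10.62 and 10.65 at day 7 (1.60, adjusted p 9.7e-05). Of 18 eicosanoid genes 4 rose and 6 fell (2 to 4 rises and 4 to 7 falls with 1 array left out, median -0.13, turning to 0.21 after centring on general epithelium): Ptgis, prostacyclin synthase, rose from 6.80, 7.75 and 7.13 to 9.17, 9.35 and 9.40 and Alox15, a lipoxygenase, fell from 8.32, 8.46 and 7.23 to 5.52, 4.92 and 4.44 (2.08 and -3.04, adjusted p 0.00018 and 0.000166). Of 14 retinoid genes 7 rose and 3 fell (median 0.51, turning to -0.39). Of these genes 2 passed the filter only through untreated and 2 only through day 4, and of the other 10, 6 rose and 1 fell.

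Stress and inflammatory programmes were split. Of 24 p53 targets, the genes that DNA damage switches on, 12 rose and 7 fell (median 0.37, turning to -0.52). Eda2r, a receptor gene of that set, was below the detection level in untreated and read 5.22, 5.64 and 5.12 at day 7, at least 2.5-fold higher (adjusted p 2e-05). Aen, a nuclease, read 7.34, 7.31 and 7.09 untreated and 8.34, 8.44 and 8.44 at day 7 (1.16, adjusted p 4.02e-05). Of 23 immediate early genes, which respond within minutes to stimuli and to cell isolation, 6 rose and 4 fell (3 to 7 rises and 2 to 5 falls with 1 array left out, median 0.26, turning to -0.64), while 22 were higher than at day 4. Without untreated replicate 3, 7 rose and 2 fell, with a median of 0.42, and the part of the larger 3-prime excess at day 4 in the comparison with day 4 was not tested. Ier3 read 7.87, 8.61 and 9.05 in untreated, 8.22, 8.55 and 8.50 at day 4 and 9.93, 10.45 and 9.94 at day 7 (1.60 against untreated, adjusted p 0.00138). Maff, a small Maf factor, read 5.67, 6.42 and 6.30 untreated, 4.94, 5.84 and 5.64 at day 4 and 7.52, 7.45 and 7.41 at day 7 (1.33, adjusted p 0.00218). Of 18 complement and acute phase genes 8 rose and 6 fell, so that the median of 0.78 (turning to -0.12) and the mean difference of -0.27 have opposite signs. On that list 2 genes passed the filter only through untreated, and of the other 16, 8 rose and 4 fell. Saa3, a serum amyloid made outside the liver, read 10.68, 10.83 and 9.44 in untreated, 10.42, 10.42 and 10.30 at day 4 and 6.58, 6.99 and 6.71 at day 7 (-3.56, adjusted p 5.58e-05), clear of both other groups.

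Interferon, class II, hypoxia and unfolded protein lists had medians below the 0.09 of all genes, and the amino acid and NRF2 lists had medians above it. Of 24 interferon genes 5 rose and 8 fell (median -0.06, turning to 0.29 after centring on general epithelium and to 0.05 with the mean of all probe sets), with Igtp, an immunity GTPase, lower, at -0.91 (adjusted p 0.000143). Of 11 class II presentation genes 3 rose and 3 fell (3 rises and 3 to 5 falls with 1 array left out, median -0.07, turning to 0.27 after that centring, and 5 falls with a median of -0.25 without untreated replicate 3), with Ctss, a cathepsin of antigen processing, at 10.34, 10.41 and 9.46 untreated and 8.16, 8.13 and 8.01 at day 7 (-1.97, adjusted p 0.000201). Hypoxia targets had 3 rises and 5 falls among 20 (1 to 4 rises and 5 to 6 falls with 1 array left out, median -0.16, turning to 0.19), and unfolded protein genes 2 rises and 3 falls among 20 (0 to 2 rises and 2 to 4 falls with 1 array left out, median -0.08, turning to 0.26), with Edem1, which clears misfolded glycoproteins, lower, at -1.73 (adjusted p 8.88e-05). Without untreated replicate 3, 0 unfolded protein genes rose and 4 fell (median -0.17). Of 19 genes of the amino acid response 9 rose and 4 fell (7 to 10 rises and 2 to 5 falls with 1 array left out, median 0.38, turning to -0.52 after centring on fibroblasts): Asns, asparagine synthetase, read 7.29, 7.25 and 7.19 untreated and 8.19, 8.43 and 8.43 at day 7 (1.11, adjusted p 5.37e-05). Slc7a11, the cystine importer, read 5.93, 5.74 and 5.92 untreated and 4.12, 3.84 and 4.25 at day 7 (-1.80, adjusted p 1.32e-05). These 2 members of the same response were displaced in opposite directions. Of 26 NRF2 and glutathione genes 11 rose and 5 fell (median 0.30, turning to -0.60), with the peroxidase Gpx8 up by 1.12 (adjusted p 0.00038).

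Members of the circadian clock list differed in both directions. The clock is a loop in which the activators Clock, Arntl and Npas2 bind E-boxes of their targets and Per and Cry proteins hold them back, with Dbp, Tef and Hlf as output factors that bind D-boxes. Of 14 tested members 9 rose and 4 fell (median 0.61, turning to -0.28 after centring on fibroblasts). Dbp read 7.98, 8.32 and 7.91 in untreated, 10.04, 10.40 and 10.05 at day 4 and 10.64, 10.47 and 10.65 at day 7 (2.52 against untreated, SE 0.14, adjusted p 8.13e-06). Tef read 6.89, 7.06 and 7.10 untreated, 8.54, 8.47 and 8.34 at day 4 and 8.43, 8.25 and 8.36 at day 7 (1.33, adjusted p 2.62e-05), and Hlf was below the detection level in untreated and at least 1.55-fold higher at day 7 (adjusted p 0.000253). All 3 output factors stood clear of untreated, and at day 4 as at day 7. Per3 rose by 1.36, Nr1d2 by 0.84, Cry2 by 0.64, Clock by 0.58 (its probe sets disagree in sign), Rora by 0.53 and Bhlhe40, a repressor, by 1.16 (adjusted p 9.85e-05, 0.000536, 0.00144, 0.00315, 0.00384 and 5.44e-05). After centring on fibroblasts Nr1d2, Cry2, Clock and Rora lay below 0, between -0.36 and -0.05. The activators Arntl and Npas2 and the repressors Per1 and Cry1 went the other way. Arntl read 7.95, 7.61 and 8.02 untreated and 7.06, 7.03 and 7.12 at day 7 (-0.79, adjusted p 0.000646), Cry1 8.50, 8.14 and 8.61 untreated and 7.12, 7.32 and 7.43 at day 7 (-1.13, adjusted p 0.000346), Per1 7.41, 7.11 and 8.14 untreated and 6.47, 6.22 and 6.21 at day 7 (-1.25, adjusted p 0.0032), and Npas2 differed by -0.56 (adjusted p 0.00998). Nfil3, a D-box repressor, differed by -0.05 (adjusted p 0.851). Apart from Dbp, Tef and Bhlhe40, the members were named after their values were seen. The hour of tissue collection is not given in the sources used here, and its part in these values was not tested.

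The E-box letters CACGTG, which read the same on both strands, were searched in the 250 bases before the start of each gene in RefSeq (GRCm38.p6), for which 13 of the 14 clock genes had an entry. They stood in 3 of these 13, Tef, Per1 and Cry1, against 9.88% of the 8842 tested genes with an entry. The D-box letters TTATGTAA, or TTACATAA on the other strand, stood in 1, Per3, at 2 places, against 0.599%. The windows are shown because the genes that hold the same E-box letters differed in direction at day 7: Tef rose, and Per1 and Cry1 fell. Each sequence runs 5′ to 3′ on the gene's strand with 30 bases on each side, and capitals mark the motif. They lie at chr15:81802516-81802581 (plus strand, the first of 2 annotated starts of Tef), chr11:69098753-69098818 (plus strand, Per1), chr10:85185079-85185144 (minus strand, Cry1) and chr4:151044786-151044853 (minus strand, Per3), upstream of the annotated start. A match of letters does not show that a factor was bound.
Tef: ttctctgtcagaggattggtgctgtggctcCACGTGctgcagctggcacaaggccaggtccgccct
Per1: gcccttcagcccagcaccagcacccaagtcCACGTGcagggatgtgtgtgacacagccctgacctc
Cry1: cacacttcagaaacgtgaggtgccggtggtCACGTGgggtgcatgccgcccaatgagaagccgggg
Per3: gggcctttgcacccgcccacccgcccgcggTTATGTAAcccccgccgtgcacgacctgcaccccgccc

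**Figure D5:**
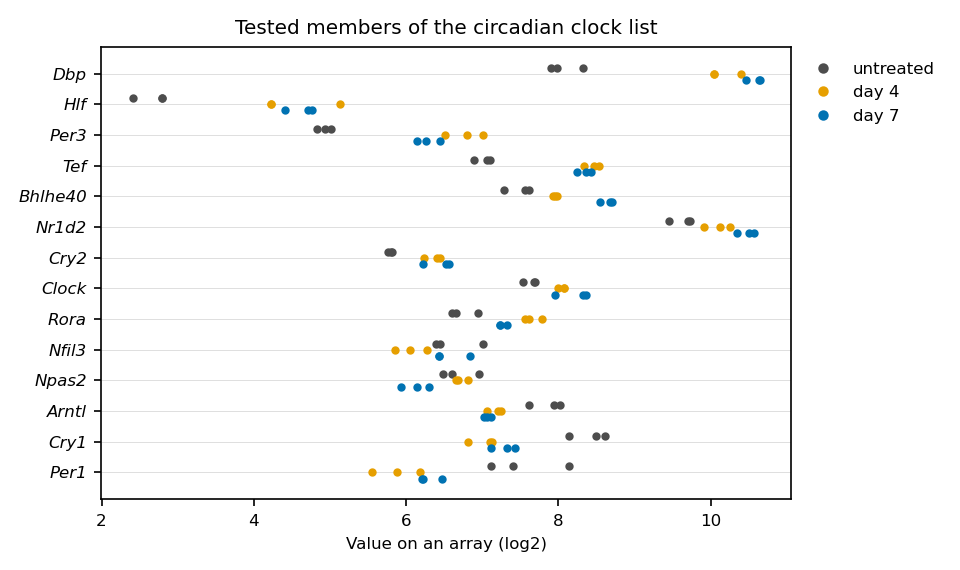
Log2 values by array for the 14 tested members of the circadian clock list, ordered by the difference between day 7 and untreated; grey is untreated, orange day 4 and blue day 7. Dbp and Tef lie above the grey points on every irradiated array, and Arntl, Cry1 and Per1 lie below them.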

How the data were processed

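RNA of the 9 samples had been hybridised to Affymetrix MOE430 2.0 arrays, 1 sample each. The authors deposited GCRMA values, per the submitters' processing notes, and the log2 scale was inferred from the deposited values, which run from 2.27 to 15.52. The GCRMA version is not given in the sources used here. Between 26.1% and 27.2% of the values of an array lie at its lowest value. Of 45101 probe sets, 34945 had 1 gene symbol, and the probe set with the highest mean stood for each of 18193 genes. Genes were tested (10937) where at least 3 arrays reached 4. Groups were compared with limma 3.58.1 in R 4.3.3 (lmFit and eBayes over 9 arrays, group as the only term, Benjamini-Hochberg adjustment), which was tested on simulated data. For a gene below 4 on every array of 1 group, a fold is a bound against the level of 4. Precision is limited by the number of arrays.

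The comparison, lists and rules were chosen with earlier results of these data known. Genes named on no list are the 20 largest rises and falls without overlap and 8 bounds each way. A further 12 rises and 12 falls were also past the threshold against day 4. From the lists, up to 4 genes per compartment and 3 per programme were named by adjusted p. Each family gave its largest rise and fall past the threshold without overlap, and 10 genes were fixed. From these, the text names a selection made after the values were seen, as were the clock members outside the rule. Alternatives were other filters, probe-set rules, variance models, centrings, quantile normalization, a replicate block and leaving out each replicate. Promoter letters were searched with Python 3.11.15. The families shown have at least 8 tested members, and 1 other family of that size is not reported here.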

Additional observations from a re-analysis of the deposited data

Results flagged for a closer look

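Relative to untreated, 17 genes were lower at day 4 and higher at day 7, and 25 were higher at day 4 and lower at day 7, each past the threshold also between the 2 days. Of the genes named above, Gimap4 was 1.05 higher than untreated at day 7 and -1.15 from it at day 4, Maff 1.33 and -0.66, and Myl9 1.90 and -1.56. The day 4 and day 7 differences share the untreated arrays, and the difference between days was tested directly: 2.20 for Gimap4, 1.99 for Maff and 3.46 for Myl9 (limma adjusted p 0.00121, 0.000993 and 0.00093).

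Probe sets without a single gene symbol were used in no comparison of genes. Of 2479 such probe sets tested, 410 (16.5%) were higher and 1121 (45.2%) lower at day 7 than in untreated, against 28.3% and 25.2% of all 20298 probe sets tested in the same way.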

How the results depend on the processing

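Of the 173 genes named, 129 kept their direction and their side of the threshold under each of the alternatives that gave a value, and 44 did not under at least 1. Centring on the fibroblast list turned Clock to -0.32, Cry2 to -0.25, Foxn1 to -0.04, Krt18 to -0.20, Krt8 to -0.38, Nr1d2 to -0.05, Pdgfra to -0.24, Psmb11 to -0.09 and Rora to -0.36. Nfil3, not called, turned to 0.08 with array weights, 0.29 after centring on general epithelium, and 0.02 after quantile normalization, and ranged from -0.19 to 0.15 with 1 replicate left out. Of 62 lists, 28 had a median that turned under at least 1 alternative. Against untreated, centring on general epithelium left 1038 genes lower, centring on fibroblasts gave 334 higher and 6970 lower, and testing every probe set on its own gave 5750 higher and 5107 lower. Leaving out 1 replicate gave 2845 to 3696 higher and 1908 to 2463 lower. Against day 4, 1280 genes were lower without a filter on dim genes, 2992 with array weights, 272 after centring on general epithelium (3227 higher) and 284 after centring on fibroblasts. Leaving out 1 replicate gave 750 to 1214 higher and 1010 to 2273 lower than day 4, and the count lower fell most without day 7 replicate 1, 2 or 3 (1266, 1010 and 1279) and day 4 replicate 1 or 2 (1198 and 1139). Over 115 lists and families, a count moved by over 1.5 times in 24, 18 and 20 without untreated replicate 1, 2 or 3, in 21, 27 and 18 without day 7 replicate 1, 2 or 3, and in 4, 3 and 2 without day 4 replicate 1, 2 or 3. The cause of these changes was not tested. Same-numbered untreated and day 7 arrays deviated together with r of 0.017, 0.132 and 0.022, against -0.089 to 0.068 for arrays of different numbers. So few values cannot show whether the arrays were paired or shared a batch, and the sources used here give no pairing. With the replicate block 3287 genes were higher and 2301 lower than untreated, and 949 higher and 1665 lower than day 4. Genes below a log2 of 4 have no order, and 3 arrays per group limit the precision.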

Other observations

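Genes of cell types not described above also differed. Of 3 tested erythroid genes 2 were lower at day 7 (median -2.25, against 0.09 for all genes), and all 3 were higher than at day 4. Tfrc, the transferrin receptor of iron uptake, read 9.47, 8.80 and 9.61 in untreated, 5.72, 6.10 and 5.94 at day 4 and 7.13, 6.93 and 7.08 at day 7 (-2.25 against untreated, limma adjusted p 5.72e-05), so that day 7 lay between the other groups. Of 6 macrophage genes 3 were lower and 1 higher (median -0.36): Mertk, a receptor for the uptake of dead cells, read 3.87, 4.26 and 4.06 untreated and 5.34, 5.95 and 6.03 at day 7 (1.71, adjusted p 0.000144), while Lyz2, lysozyme, read 10.05, 10.27 and 9.19 untreated and 7.78, 7.90 and 7.58 at day 7 (-2.08, adjusted p 0.000253). Both tested muscle antigens were lower, with Mylpf, a light chain of fast muscle myosin, at 6.57, 6.74 and 6.12 untreated and 5.41, 5.04 and 5.35 at day 7 (-1.21, adjusted p 0.00186). The other passed the filter only through untreated, so it was in effect chosen for being high there.

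Among families not described above, 9 of 21 semaphorin and plexin genes, which guide axons and vessels, were higher and 1 lower (7 to 10 rises and 1 to 2 falls with 1 array left out, median 0.30, turning to -0.59 after centring on fibroblasts). Sema5a read 4.49, 5.18 and 4.83 untreated and 6.27, 6.62 and 6.45 at day 7 (1.61, adjusted p 0.000173), and Sema4d, known from T cells, read 7.44, 7.17 and 7.39 untreated and 5.39, 5.07 and 5.39 at day 7 (-2.05, adjusted p 1.06e-05). Of 29 cadherins and protocadherins 15 were higher and 7 lower (median 0.51, turning to -0.39), with Pcdh18, a protocadherin, at 5.52, 6.03 and 5.32 untreated and 7.00, 6.61 and 6.79 at day 7 (1.17, adjusted p 0.000926), and Dsg1a, a desmosomal cadherin of skin, at 7.08, 7.45 and 6.16 untreated and 4.14, 4.31 and 4.62 at day 7 (-2.54, adjusted p 0.000215).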
